A study of Rattus norvegicus with 27 samples.

Results

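Amino acid transporter genes of 8 solute carrier groups were followed across the development of the acinar cells of the rat parotid, the salivary gland that secretes amylase-rich saliva. A gene was included when its symbol in the probe annotation began with Slc1a, Slc3a, Slc6a, Slc7a, Slc36a, Slc38a or Slc43a, or was Slc16a10, and it was read from its probe set with the highest mean over all arrays. This gave 54 of the 14217 genes with a single symbol on the array, of which 53 are carriers or their subunits. The remaining one, Slc7a6os, carries the family's name because it lies opposite Slc7a6, and its product is not a carrier.

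Acini of Sprague Dawley rats (spelled Sprauge in the labels) were captured by laser at embryonic days E18 and E20, on the day of birth (P0) and on later postnatal days (P2 and P5, then P9 and P15, then P20 and P25), with 3 arrays at each age and 27 in all. According to the study's methods, the arrays of an age came from different litters. The labels name no treatment and no engineered allele. Sections were cut from whole heads up to P5 and from dissected glands at older ages, so any contrast between an age up to P5 and an older age also spans that change of preparation, and the effects cannot be told apart. RNA was amplified from 1.5 or 4.5 ng per sample before hybridisation, and which array received which amount is not stated. Stage 1 stands for E18, E20 and P0, stage 2 for P2 and P5, stage 3 for P9 and P15 and stage 4 for P20 and P25. The study drew these limits on the same arrays.

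Amino acids cross membranes through carriers that differ in what drives them. Sodium-coupled carriers of the Slc1a, Slc6a and Slc38a families load the cell against a gradient, whereas the light chains of the Slc7a family, held at the membrane by a heavy chain of the Slc3a family, mostly exchange one amino acid for another. The cationic Slc7a carriers bring in arginine and lysine, the Slc36a carriers move small amino acids with protons, and Slc43a and Slc16a10 proteins let large neutral or aromatic amino acids pass by facilitated diffusion. A serous acinar cell that fills with secretory granules makes large amounts of protein, much of it rich in proline, and takes its amino acids from the blood through such carriers.

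All levels below are log2 values of the deposited table, on which a difference of 1 is a doubling, and the number of arrays limits their precision. A gene was called changed when limma's adjusted p (Benjamini-Hochberg, over 31042 probe sets) was under 0.05. Levels of different probe sets cannot be set against each other, so genes are compared only in how they changed. A gene whose highest age mean was below 6.04, the median of all deposited values, is called dim. Of the 54 genes 23 were dim and 31 were not.

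The carriers did not move as one group. Over the 9 ages 20 of the 54 genes passed the F test, against 28% of all genes. Between E18 and P25, 19 genes rose and 3 fell, while 18.4% of all genes rose and 17.5% fell. The genes that rose without being dim were Slc6a20a, Slc1a2, Slc7a8, Slc6a14, Slc7a4, Slc7a2, Slc6a9, Slc3a2 and Slc6a17, and the one that fell was Slc7a6. Calls in this contrast differed with level over all genes, so the genes were also split by their mean over all 27 arrays at the same value of 6.04. This split was chosen after the values were seen. Of the 22 genes with a mean at or above it 5 rose and 1 fell, beside 11.3% and 25.3% of all such genes. Of the 32 with a lower mean 14 rose and 2 fell, beside 30.2% and 4.34% of all such genes. Among the 14 were Slc1a2, Slc6a14, Slc7a4 and Slc7a2, which were not dim only through age means from P15 on. In bulk captures such as these, fewer cells that carry an mRNA and less of it in each cell cannot be told apart.

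**Figure D1:**
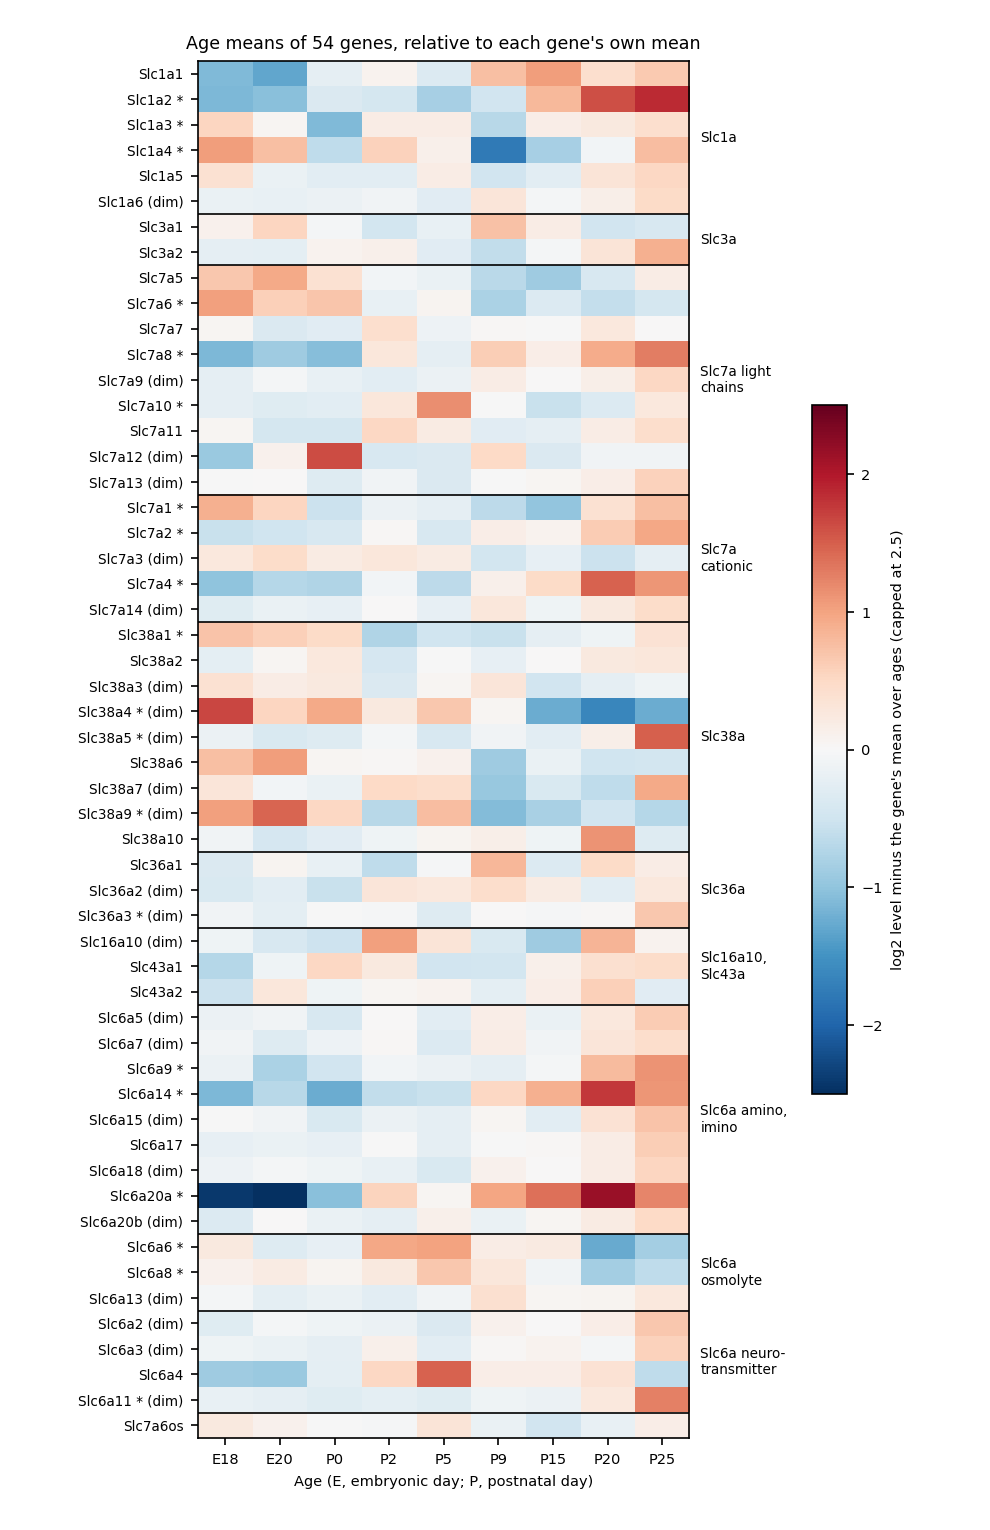
Age means of the 54 genes (rows, grouped by family) at the 9 ages (columns), as the log2 difference from each gene's own mean over the ages, from blue (below) to red (above) and capped at 2.5. A star marks the 20 genes that passed the F test, and dim genes are named so. Slc6a20a, Slc6a14, Slc1a2, Slc7a4 and Slc7a8 turn from blue to red with age, Slc38a4 from red to blue, and Slc7a1 and Slc1a4 are red at both ends.

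The gene with the widest range of age means was Slc6a20a, which encodes a sodium- and chloride-coupled carrier of proline and other imino acids. On the 3 arrays of each age Slc6a20a measured 5.54, 4.74 and 3.73 at E18, 5.23, 3.65 and 3.70 at E20 and 5.89, 6.01 and 6.22 at P0. Stage 2 gave 7.74, 7.67 and 7.53 at P2 and 7.24, 6.73 and 7.41 at P5, and stage 3 gave 8.36, 7.87 and 7.96 at P9 and 7.98, 8.48 and 8.93 at P15. Its levels were 9.43, 8.91 and 9.35 at P20 and 9.04, 7.82 and 8.03 at P25. Every array from P2 on lay above every array up to P0, and the P0 arrays lay above those of E18 and E20. Slc6a20a was 3.63 ± 0.43 higher at P25 than at E18 (SE, n = 3 each, limma adjusted p = 3.29e-06) and 2.42 ± 0.27 higher in stage 2 than in stage 1 (adjusted p = 1.36e-05). A second probe set of the gene also rose between E18 and P25, by 1.52 ± 0.33 (adjusted p = 0.00198), but differed by only 0.17 ± 0.21 between stages 2 and 1 (adjusted p = 0.825). The timing of the early step thus rests on 1 probe set.

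Slc6a14, which takes up neutral and cationic amino acids with sodium and chloride, measured 3.62, 3.67 and 3.90 at E18, 3.74, 4.20 and 4.54 at E20 and 3.49, 3.68 and 3.68 at P0. It measured 4.75, 4.06 and 3.92 at P2, 4.29, 4.40 and 4.24 at P5, 6.93, 4.54 and 4.66 at P9 and 5.74, 6.13 and 5.36 at P15. Stage 4 gave 7.43, 6.72 and 5.71 at P20 and 5.09, 8.04 and 4.75 at P25. All P15, P20 and P25 arrays lay above all arrays of stage 1, but the 3 arrays of P25 were far apart. The rise between E18 and P25 was 2.23 ± 0.65 (adjusted p = 0.0127), and it was no longer called without P25 replicate 2, the highest of the 3 (adjusted p = 0.0953).

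Slc6a9, the glycine transporter GlyT1, changed late. It measured 5.92, 6.53 and 6.31 at E18, 5.43, 5.79 and 5.61 at E20, 6.24, 5.85 and 5.67 at P0, 6.53, 5.53 and 6.94 at P2 and 6.20, 6.35 and 6.23 at P5. At P9 it gave 5.93, 6.25 and 6.35, and at P15 6.37, 6.49 and 6.19. Stage 4 arrays gave 7.89, 6.71 and 6.95 at P20 and 7.62, 7.49 and 7.46 at P25. The stage 4 arrays all lay above the stage 3 arrays, and the 3 arrays of P25 were close together. Slc6a9 was 1.09 ± 0.22 higher in stage 4 than in stage 3 (n = 6 each, limma adjusted p = 0.00289) and 1.27 ± 0.31 higher at P25 than at E18 (adjusted p = 0.00429). A second probe set rose in both comparisons, by 1.03 ± 0.26 and 1.26 ± 0.37 (adjusted p = 0.0166 and 0.0132), and the other one was called in neither.

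Among the other carriers of amino and imino acids in Slc6a, Slc6a17, a neutral amino acid carrier of synaptic vesicles in the brain, was 0.82 ± 0.23 higher at P25 than at E18 (adjusted p = 0.01). Its 5 probe sets disagreed. One rose by 1.08 ± 0.23 (adjusted p = 0.00178), one fell by 4.51 ± 1.61 (adjusted p = 0.0359), and the remaining pair was not called, so the gene's direction is not settled. Slc6a5, the glycine transporter GlyT2, and Slc6a20b were dim and are described with the dim genes, as are Slc6a7, a proline carrier of neurons, Slc6a15 and Slc6a18. All 9 carriers of this group had a positive change between E18 and P25 and 6 were called, beside 18.4% of all genes. For 6 of the 9 the mean over all arrays was below 6.04. Of all genes with such a mean 75.5% had a positive change and 30.2% were called higher. The 6 calls include Slc6a17, and those of Slc6a5 and Slc6a20b were lost after quantile normalization (limma adjusted p = 0.288 and 0.287).

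Slc1a2, the glutamate transporter GLT-1, was highest in stage 4. Its arrays gave 3.80, 4.29 and 4.51 at E18, 4.54, 4.36 and 3.96 at E20 and 4.48, 4.57 and 5.84 at P0, and 4.81, 5.11 and 4.71 at P2 and 4.33, 4.85 and 4.30 at P5. They gave 4.91, 4.85 and 4.79 at P9 and 6.01, 5.81 and 6.55 at P15, against which stage 4 gave 6.22, 6.92 and 7.66 at P20 and 7.56, 5.14 and 8.83 at P25. The P15 arrays lay above all earlier arrays other than P0 replicate 3, and P25 replicate 2 lay well below the other arrays of stage 4. Slc1a2 was 2.98 ± 0.58 higher at P25 than at E18 (adjusted p = 0.000807) and 1.57 ± 0.41 higher in stage 4 than in stage 3 (adjusted p = 0.0207). The call between stages 4 and 3 was lost without P15 replicate 2 or P20 replicate 3 (adjusted p up to 0.054). A second probe set rose in both comparisons, by 1.59 ± 0.37 and 1.03 ± 0.26 (adjusted p = 0.00343 and 0.0178).

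Of the other glutamate carriers, Slc1a6 rose by 0.63 ± 0.22 (adjusted p = 0.0345) but was dim, and neither Slc1a1 nor Slc1a3 was called between E18 and P25. Slc1a1, which carries glutamate and cysteine, had its highest age mean at P15 and did not pass the F test (adjusted p = 0.151). Slc1a3, the glutamate transporter GLAST, passed the F test (adjusted p = 0.0317) with its lowest age mean at P0, where the arrays gave 7.82, 6.48 and 8.04. Its P25 and E18 means were 8.96 and 9.09, which did not differ beyond their error (-0.13 ± 0.39, adjusted p = 0.822). One of its other probe sets fell by 2.72 ± 0.38 between E18 and P25 (adjusted p = 2.4e-05) and by 0.95 ± 0.27 between stages 3 and 4 (adjusted p = 0.0302), so the probe sets of Slc1a3 disagree.

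Slc7a1, the main arginine and lysine carrier CAT1 of most cells, and Slc1a4, the alanine, serine and cysteine carrier ASCT1, shared a course with a trough. Slc7a1 measured 10.62, 10.95 and 10.50 at E18, 10.16, 10.62 and 10.25 at E20 and 9.85, 9.00 and 8.94 at P0. It gave 9.79, 10.02 and 9.18 at P2, 9.89, 9.86 and 9.02 at P5, 9.27, 8.85 and 9.32 at P9 and 9.23, 8.77 and 8.50 at P15. At P20 it measured 10.52, 10.10 and 9.96, and at P25 10.74, 10.42 and 10.53. The E18, E20, P20 and P25 arrays all lay above the arrays of P9 and P15. Slc7a1 was 1.39 ± 0.21 higher in stage 4 than in stage 3 (n = 6 each, limma adjusted p = 0.000237), with no overlap. P25 differed from E18 by only -0.13 ± 0.30 (adjusted p = 0.77). The steps between stages 2 and 1 (-0.47 ± 0.19) and between stages 3 and 2 (-0.64 ± 0.21) were not called on their own (adjusted p = 0.233 and 0.163). Both other probe sets of Slc7a1 had a positive difference between stages 4 and 3, of 0.72 ± 0.30 and 0.62 ± 0.29, and neither was called (adjusted p = 0.143 and 0.197).

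Slc1a4 measured 9.03, 9.00 and 9.08 at E18, 8.22, 9.06 and 8.97 at E20, 7.60, 8.01 and 6.45 at P0, 8.54, 8.19 and 9.00 at P2 and 8.55, 7.88 and 7.93 at P5. It measured 4.72, 7.30 and 6.64 at P9 and 6.81, 7.40 and 7.26 at P15. In stage 4 it gave 8.10, 7.14 and 8.55 at P20 and 6.83, 9.97 and 9.50 at P25. All stage 3 arrays lay below all stage 2 arrays, whereas stage 4 overlapped stage 3 through P20 replicate 2 and P25 replicate 1. Slc1a4 was 1.66 ± 0.46 higher in stage 4 than in stage 3 (adjusted p = 0.0279). This call was lost without P9 replicate 1, P15 replicate 1, P20 replicate 1 or 3, or P25 replicate 2 or 3 (adjusted p up to 0.073). The step between stages 3 and 2 was -1.66 ± 0.46 and was not called (adjusted p = 0.0922), and P25 differed from E18 by -0.27 ± 0.65 (adjusted p = 0.77).

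Many carrier genes are known to be induced through ATF4, the transcription factor of the amino acid response, so promoters of the carrier genes were searched for its element. The part of ATF4 in the courses of Slc7a1 and Slc1a4 was not tested. Age means of Atf4 itself were 10.40 at E18, 10.62 at P9, 10.46 at P15 and 11.46 at P25. The letters TGATGNAA, the core of the composite element bound by ATF4 with C/EBP proteins, were searched on both strands in RefSeq promoters of build GRCr8, 250 bases before to 50 bases after each start. The table held promoters for 42 of the 54 genes. These genes had 47 promoters, of which 3 (6.38%) held the letters, those of Slc7a1, Slc1a4 and Slc38a1, beside 3.98% of all 33469 promoters. A match is a description and not a binding site. Below, the 300 bases of each promoter are given in the direction of the gene, with the matching letters in capitals, in the forward direction for Slc7a1 and Slc38a1 and on the opposite strand for Slc1a4. The match lay 30 to 23 bases before the start of Slc7a1, 235 to 228 bases before that of Slc1a4 and 142 to 135 bases before that of Slc38a1.
Slc7a1 (chr12:11664238-11664537, plus strand): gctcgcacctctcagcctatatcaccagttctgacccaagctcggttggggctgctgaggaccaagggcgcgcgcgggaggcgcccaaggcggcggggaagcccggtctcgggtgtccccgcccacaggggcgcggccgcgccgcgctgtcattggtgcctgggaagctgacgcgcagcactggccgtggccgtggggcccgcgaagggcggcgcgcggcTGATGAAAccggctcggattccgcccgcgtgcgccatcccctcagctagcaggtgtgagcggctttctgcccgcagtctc
Slc1a4 (chr14:98761513-98761812, minus strand): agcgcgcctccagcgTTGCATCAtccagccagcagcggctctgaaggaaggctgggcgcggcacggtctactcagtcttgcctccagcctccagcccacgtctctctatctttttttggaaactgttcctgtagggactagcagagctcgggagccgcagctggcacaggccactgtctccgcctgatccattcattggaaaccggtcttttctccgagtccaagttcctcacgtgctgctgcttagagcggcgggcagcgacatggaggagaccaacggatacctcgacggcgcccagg
Slc38a1 (chr7:129681352-129681651, minus strand): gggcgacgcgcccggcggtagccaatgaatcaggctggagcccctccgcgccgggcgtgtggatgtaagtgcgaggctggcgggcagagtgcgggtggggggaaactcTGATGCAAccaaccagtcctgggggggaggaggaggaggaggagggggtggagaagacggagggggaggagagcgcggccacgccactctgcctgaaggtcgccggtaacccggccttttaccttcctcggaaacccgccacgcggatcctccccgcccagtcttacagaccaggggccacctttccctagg

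Slc38a1, a sodium-coupled glutamine and alanine carrier whose promoter is the last of those shown, had a trough too, but reached it earlier. Its age mean was 10.28 at E18, lowest at P2 (8.81) and 9.92 at P25. Its lowest, median and highest levels were 9.47, 10.12 and 10.84 on the 9 arrays of stage 1, 7.68, 9.08 and 9.56 on the 6 arrays of stage 2, 8.84, 9.08 and 9.63 in stage 3 and 9.19, 9.77 and 10.23 in stage 4. It fell by 1.22 ± 0.26 in stage 2 relative to stage 1 (adjusted p = 0.0101), with an overlap through E18 replicate 1, P2 replicate 1 and P5 replicate 3. One of its other probe sets fell likewise, by 1.08 ± 0.26 (adjusted p = 0.0209), and the third was not called. The difference between stages 4 and 3 was 0.52 ± 0.28 and was not called (adjusted p = 0.269). P25 differed from E18 by -0.36 ± 0.40 (adjusted p = 0.513).

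Among the remaining cationic carriers Slc7a2 and Slc7a4 rose. Slc7a2, the inducible arginine carrier CAT2, was 1.53 ± 0.31 higher at P25 than at E18 (adjusted p = 0.00112), with 6.65, 6.44 and 6.05 at P25 and 4.89, 4.67 and 5.02 at E18. Slc7a4, a relative of these carriers, measured 4.26, 4.35 and 4.83 at E18, 4.48, 5.19 and 4.61 at E20, 4.48, 5.34 and 4.34 at P0, 5.24, 4.68 and 6.33 at P2 and 4.62, 4.85 and 5.01 at P5. It measured 5.80, 5.31 and 5.72 at P9, 5.40, 6.32 and 6.17 at P15, 7.63, 6.82 and 6.41 at P20 and 7.59, 6.15 and 6.01 at P25. The stage 4 arrays lay above all arrays of stage 1, and they overlapped those of P15. Slc7a4 was 2.10 ± 0.44 higher at P25 than at E18 (adjusted p = 0.00134). Slc7a3 and Slc7a14 were dim. Slc7a1 thus differed from Slc7a2 and Slc7a4 in having no change between E18 and P25 beyond its error, although the difference between the genes was not tested.

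**Figure D2:**
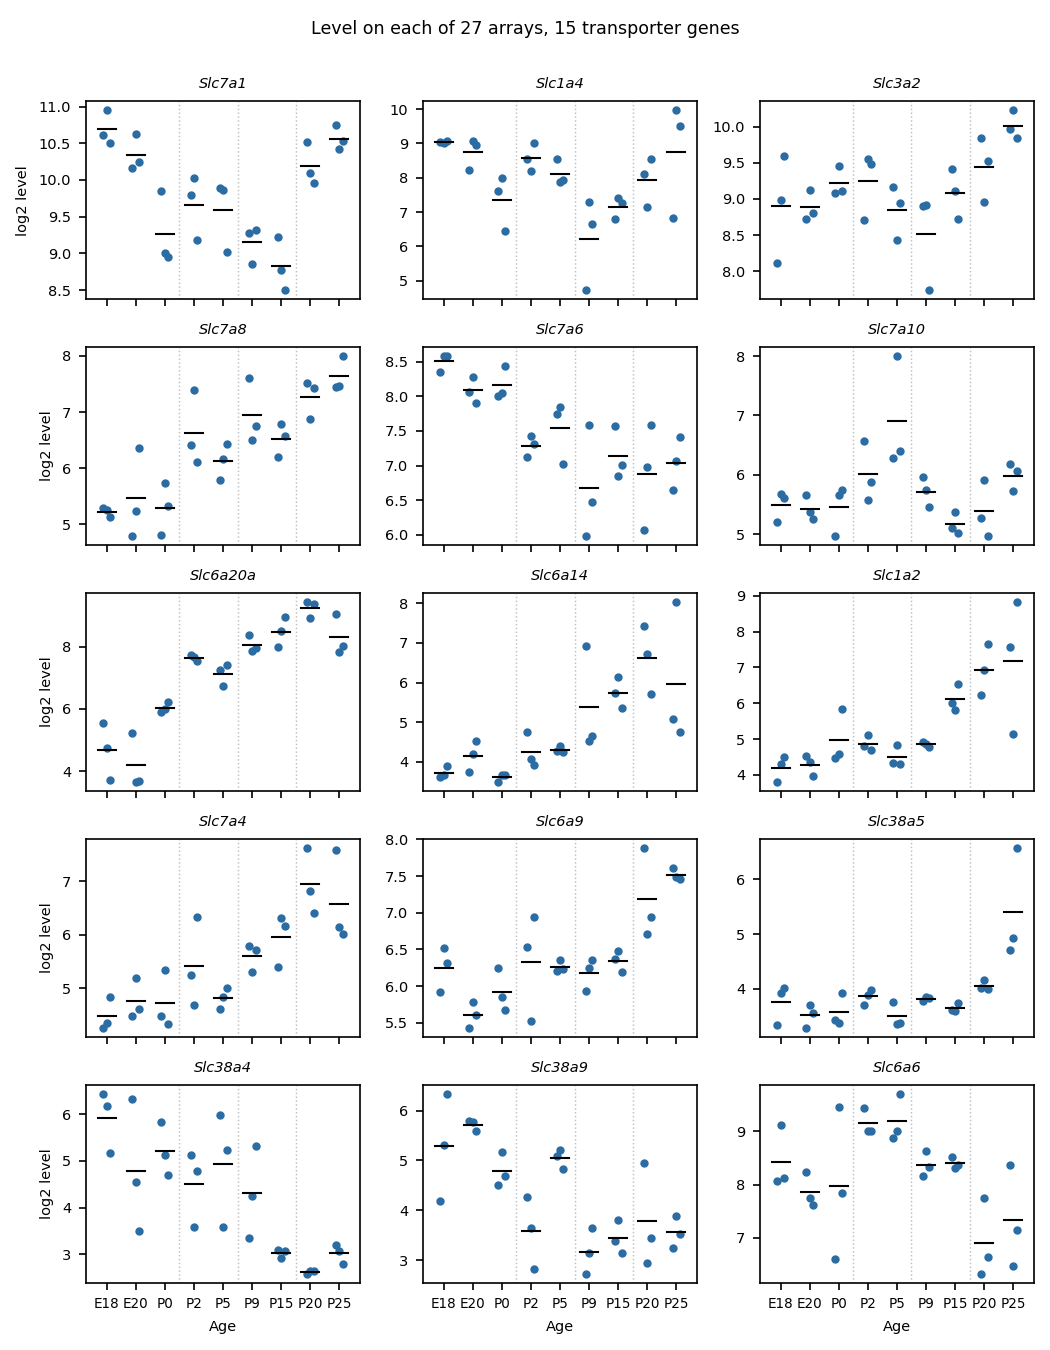
Level of 15 transporter genes (log2, vertical axis) on each of the 27 arrays (points) by age (horizontal axis), with the mean of each age as a bar and dotted lines between the 4 stages. Slc7a1 and Slc1a4 are lowest at P9 and P15 and high at both ends, Slc6a20a climbs from P0 on, and Slc38a5 stands apart only at P25.

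Of the 9 light chains 2 rose between E18 and P25 (Slc7a8 and the dim Slc7a9) and 1 fell (Slc7a6), beside 18.4% and 17.5% of all genes. Slc7a8, the exchanger LAT2 of neutral amino acids, measured 5.30, 5.26 and 5.12 at E18, 4.79, 5.25 and 6.36 at E20 and 4.82, 5.73 and 5.33 at P0. Its arrays gave 6.41, 7.39 and 6.11 at P2, 5.79, 6.16 and 6.42 at P5, 7.60, 6.51 and 6.76 at P9 and 6.21, 6.79 and 6.57 at P15. They gave 7.53, 6.87 and 7.43 at P20 and 7.45, 7.46 and 8.00 at P25. Apart from E20 replicate 3, every array from P2 on lay above every array of stage 1. Slc7a8 was 2.41 ± 0.39 higher at P25 than at E18 (adjusted p = 0.000117) and 1.05 ± 0.25 higher in stage 2 than in stage 1 (adjusted p = 0.0209). The call between stages 2 and 1 was lost without P2 replicate 2, P5 replicate 2 or P5 replicate 3 (adjusted p up to 0.0681).

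Slc7a6, which exchanges cationic for neutral amino acids with sodium, measured 8.36, 8.58 and 8.58 at E18, 8.07, 8.29 and 7.90 at E20 and 8.01, 8.05 and 8.44 at P0. Later arrays gave 7.12, 7.43 and 7.31 at P2, 7.75, 7.84 and 7.03 at P5, 5.98, 7.59 and 6.48 at P9 and 7.57, 6.85 and 7.01 at P15. Stage 4 gave 6.06, 6.98 and 7.58 at P20 and 6.65, 7.06 and 7.41 at P25. No array from P2 on reached the lowest array of stage 1. Slc7a6 fell by 1.47 ± 0.37 at P25 relative to E18 (adjusted p = 0.00554). Slc7a6os, from the opposite strand, did not pass the F test (adjusted p = 0.472).

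Slc3a2, the heavy chain (CD98) that these light chains share, measured 8.12, 8.99 and 9.60 at E18, 8.73, 9.12 and 8.80 at E20 and 9.08, 9.46 and 9.11 at P0. It measured 8.72, 9.55 and 9.48 at P2, 9.16, 8.43 and 8.94 at P5, 8.90, 8.92 and 7.73 at P9 and 9.41, 9.10 and 8.72 at P15. At P20 it gave 9.84, 8.96 and 9.53, and at P25 9.97, 10.23 and 9.85. The 3 arrays of P25 lay above all 24 others. Slc3a2 was 1.12 ± 0.37 higher at P25 than at E18 (adjusted p = 0.0238) and 0.93 ± 0.26 higher in stage 4 than in stage 3 (adjusted p = 0.028), but it did not pass the F test (adjusted p = 0.0879). The P25 call was lost without E18 replicate 1 or P25 replicate 2 (adjusted p up to 0.156). That of stage 4 was lost without P9 replicate 3, P15 replicate 2 or 3, P20 replicate 1 or 3, or P25 replicate 2 (adjusted p up to 0.0807).

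Slc7a5, the exchanger LAT1 of large neutral amino acids, had age means of 8.02 at E18, 8.30 at E20, 6.46 at P15 and 7.54 at P25. It did not pass the F test (adjusted p = 0.0597). Slc7a7 and the cystine carrier Slc7a11 did not pass it either (adjusted p = 0.758 and 0.683), and none of the 3 was called in any of the contrasts. Slc3a1, the other heavy chain, was not called (F test, adjusted p = 0.594), and its usual light chain Slc7a9 was dim.

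Slc7a10, the exchanger Asc-1 of small neutral amino acids, was highest in stage 2. It measured 5.21, 5.67 and 5.61 at E18, 5.66, 5.37 and 5.26 at E20, 4.97, 5.66 and 5.74 at P0, 6.57, 5.57 and 5.88 at P2 and 6.29, 8.00 and 6.41 at P5. Levels of 5.96, 5.74 and 5.45 at P9, 5.11, 5.37 and 5.02 at P15, 5.27, 5.92 and 4.97 at P20 and 6.18, 5.72 and 6.06 at P25 followed. P5 replicate 2 stood above all other arrays. Slc7a10 was 0.99 ± 0.24 higher in stage 2 than in stage 1 (adjusted p = 0.0225), and the call was lost without P2 replicate 1 or P5 replicate 2 (adjusted p up to 0.0791). The mean of 11 of 12 adipocyte markers lay between 6.04 and 8.72 on the stage 2 arrays, against 4.66 to 6.19 on the stage 1 arrays, and the part of such cells in the level of Slc7a10 was not tested.

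Within the Slc38a family of sodium-coupled neutral carriers the directions were mixed. Slc38a2, the carrier SNAT2 known for its induction by amino acid shortage, gave between 10.03 and 11.60 on all 27 arrays and was called in no comparison. Its P25 and E18 means were 10.90 and 10.38 (0.52 ± 0.27, adjusted p = 0.14). Slc38a6, Slc38a7 and Slc38a10 were also called in none.

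Slc38a4, an imprinted gene for a carrier of neutral and cationic amino acids, measured 6.44, 6.18 and 5.16 at E18, 6.33, 4.55 and 3.49 at E20, 5.83, 5.13 and 4.69 at P0, 5.12, 3.60 and 4.79 at P2 and 5.99, 3.58 and 5.23 at P5. It measured 3.35, 4.25 and 5.32 at P9, 3.10, 2.92 and 3.07 at P15, 2.59, 2.66 and 2.65 at P20 and 3.20, 3.07 and 2.80 at P25. From P15 on all arrays lay between 2.59 and 3.20, below every array of the younger ages, and the younger arrays varied widely within an age. Slc38a4 fell by 2.90 ± 0.63 at P25 relative to E18 (adjusted p = 0.00189). It was dim by its highest age mean (5.93 at E18), and 4.34% of all genes with a mean over all arrays under 6.04 fell in this comparison.

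Slc38a9, a lysosomal carrier through which arginine is sensed, was the other dim gene that fell. It measured 4.19, 5.32 and 6.34 at E18, 5.79, 5.77 and 5.59 at E20, 4.51, 5.17 and 4.69 at P0, 4.26, 3.65 and 2.82 at P2 and 5.09, 5.21 and 4.82 at P5. It measured 2.72, 3.13 and 3.65 at P9, 3.38, 3.80 and 3.15 at P15, 4.96, 2.95 and 3.44 at P20 and 3.25, 3.89 and 3.53 at P25. All arrays of E20 lay above those from P9 on, while P2 was low and P5 high. Slc38a9 fell by 1.73 ± 0.48 at P25 relative to E18 (adjusted p = 0.00995), which no longer passed without E18 replicate 3 (adjusted p = 0.0655).

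Slc38a5, a glutamine, asparagine and glycine carrier, stayed near the bottom of the scale until P20. It measured 3.34, 3.93 and 4.02 at E18, 3.28, 3.71 and 3.56 at E20, 3.44, 3.37 and 3.92 at P0, 3.71, 3.89 and 3.97 at P2 and 3.76, 3.35 and 3.38 at P5. It measured 3.78, 3.84 and 3.84 at P9, 3.61, 3.59 and 3.74 at P15, 4.02, 4.15 and 3.99 at P20 and 4.70, 4.92 and 6.58 at P25. The 3 arrays of P25 lay above all others, P25 replicate 3 by the widest margin. Slc38a5 was 1.64 ± 0.33 higher at P25 than at E18 (adjusted p = 0.000993) and 0.99 ± 0.23 higher in stage 4 than in stage 3 (adjusted p = 0.00971).

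The carriers of taurine and creatine in Slc6a fell in stage 4. Slc6a6, the taurine transporter, measured 8.06, 9.11 and 8.11 at E18, 8.23, 7.74 and 7.62 at E20, 6.61, 9.45 and 7.83 at P0, 9.43, 9.00 and 9.01 at P2 and 8.87, 9.01 and 9.70 at P5. It measured 8.16, 8.63 and 8.32 at P9, 8.51, 8.31 and 8.37 at P15, 6.33, 7.76 and 6.65 at P20 and 8.37, 6.48 and 7.15 at P25. All stage 4 arrays except P25 replicate 1 lay below all stage 3 arrays. Slc6a6 fell by 1.26 ± 0.38 in stage 4 relative to stage 3 (adjusted p = 0.0417), and its other probe set fell by 1.92 ± 0.40 (adjusted p = 0.00408). Between E18 and P25 the other probe set fell by 2.05 ± 0.56 (adjusted p = 0.00942), where the probe set used here was not called (-1.09 ± 0.53, adjusted p = 0.117).

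Slc6a8, the creatine transporter, had 6.63, 7.43 and 8.64 as its lowest, median and highest level in stage 4 and 8.00, 8.26 and 8.70 in stage 3. It fell by 0.84 ± 0.25 in stage 4 relative to stage 3 (adjusted p = 0.0402), with an overlap through P25 replicate 3, and its other probe set was not called (-0.54 ± 0.42, adjusted p = 0.451). Both falls were close to the threshold. That of Slc6a6 was lost without P0 replicate 3, any of the 6 stage 3 arrays, P20 replicate 1 or 3, or P25 replicate 2 or 3 (adjusted p up to 0.1). That of Slc6a8 was lost without P9 replicate 2 or 3, any P15 array, P20 replicate 1 or 2, or P25 replicate 1 or 2 (adjusted p up to 0.0935). Slc6a13, a GABA and taurine carrier, was dim and was not called.

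Of the carriers of neurotransmitters only Slc6a4, the serotonin transporter, was not dim. It had 6.21, 6.58 and 8.19 as its lowest, median and highest level in stage 2 and 3.57, 4.91 and 6.82 in stage 1, and it was 1.69 ± 0.44 higher in stage 2 (adjusted p = 0.037). Its stage 1 arrays were split. Replicate 1 of E18, E20 and P0 gave 6.82, 6.33 and 6.32, and P0 replicate 3 gave 6.08, whereas the other 5 lay between 3.57 and 4.91. On the same first replicates the mean of 7 of 16 epidermis and hair follicle markers was 7.83, 7.85 and 7.60, and that of 15 of 16 skeletal muscle markers 10.35, 10.40 and 10.03. P0 replicate 3 gave 5.69 and 8.97 for these markers, and the other 5 arrays gave 4.64 to 5.51 and 5.83 to 8.07. With muscle, epidermis and cartilage markers as covariates the difference of Slc6a4 was 1.43 ± 0.56 (adjusted p = 0.271). The call was also lost without any one of 10 arrays (E18 replicate 2 or 3, E20 replicate 2 or 3, P0 replicate 2, any P2 array, P5 replicate 2 or 3), with an adjusted p of at most 0.12.

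The small groups of Slc36a, Slc43a and Slc16a10 held few calls. Slc43a1 and Slc43a2, facilitators of branched and large neutral amino acids, did not pass the F test (adjusted p = 0.327 and 0.222) and were called in no contrast, and neither was the dim Slc16a10. Slc36a1, the lysosomal proton-coupled carrier PAT1, was called in none (F test, adjusted p = 0.39). Slc1a5, the glutamine carrier ASCT2, gave 6.67, 6.83 and 7.23 as its lowest, median and highest level in stage 4 and 5.39, 6.21 and 6.47 in stage 3, which did not overlap but were not called apart (0.79 ± 0.33, adjusted p = 0.143).

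**Figure D3:**
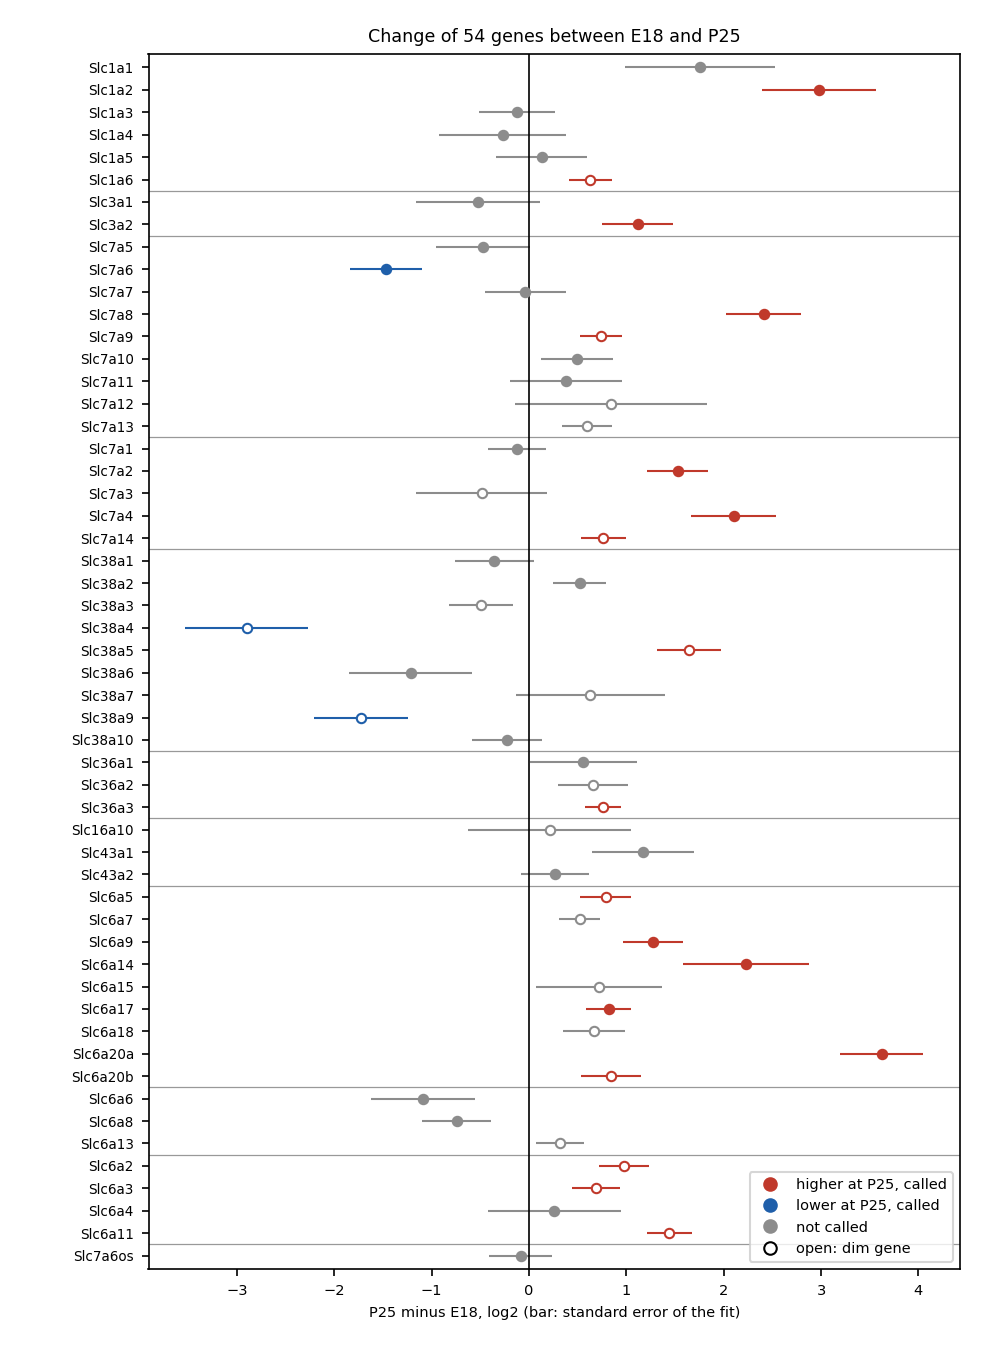
Difference between P25 and E18 (log2, horizontal axis) of the 54 genes, grouped by family, with the standard error of the limma fit as bars. Red marks the 19 called rises, blue the 3 called falls and grey no call, and open points are dim genes. Slc6a20a has the largest rise, 3.63, and Slc38a4 the largest fall, while the open red points lie between 0.63 and 1.64.

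Genes of low level rose more often than others. The median change between E18 and P25 was 0.70 over the 32 carriers with a mean under 6.04 and 0.55 over all 5277 such genes, while it was 0.06 over all genes. The 14 that rose were 10 dim genes together with Slc1a2, Slc6a14, Slc7a2 and Slc7a4. The values of the P25 arrays were also spread less widely (SD 2.10) than those of the E18 arrays (SD 2.37). After quantile normalization, which gives all arrays the same distribution, 7 of the 32 rose, beside 13.3% of all such genes. Of the other 22 genes 6 rose in that setting, and the matching share of all genes is not given here, so that count has no background.

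The 10 dim carriers that rose were Slc38a5, the GABA transporter Slc6a11, the noradrenaline and dopamine transporters Slc6a2 and Slc6a3, Slc6a5, Slc6a20b, Slc7a9, Slc7a14, Slc36a3 and the glutamate carrier Slc1a6. Slc38a5, Slc6a11 and Slc6a2 were still called after quantile normalization (adjusted p = 0.00655, 0.000481 and 0.04), but with the marker covariates described below only Slc6a11 was (adjusted p = 0.0747, 0.00472 and 0.0889). Slc6a11 measured 5.12, 5.14 and 5.07 at P25 and 3.34, 3.92 and 3.76 at E18, a rise of 1.44 ± 0.23 (adjusted p = 0.000122), and it was 0.88 ± 0.16 higher in stage 4 than in stage 3 (adjusted p = 0.00155). The other 8 rises among dim carriers, apart from Slc38a5, lay between 0.63 and 0.98. Some of these rested on single arrays. Slc6a2 was lost without E18 replicate 1 (adjusted p = 0.0548), Slc7a14 without E18 replicate 1 or P25 replicate 2 (up to 0.104), and Slc1a6 without E18 replicate 1 or P25 replicate 1 or 3 (up to 0.188). Slc6a20b was lost without E18 replicate 1 or 3 or P25 replicate 1 (adjusted p up to 0.245), Slc6a3 without E18 replicate 1 or 2 or P25 replicate 2 or 3 (up to 0.192), and Slc6a5 without E18 replicate 1 or 2 or P25 replicate 1 or 3 (up to 0.135). A second probe set of Slc6a3, with a mean of 4.52 over all arrays, rose by 1.11 ± 0.25 (limma adjusted p = 0.00241). Apart from Slc38a4 and Slc38a9, which fell, the other dim genes were called in no comparison. Among them were Slc36a2, Slc38a3, Slc7a12 and Slc7a13, and their highest age means lay between 3.20 and 6.01.

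**Figure D4:**
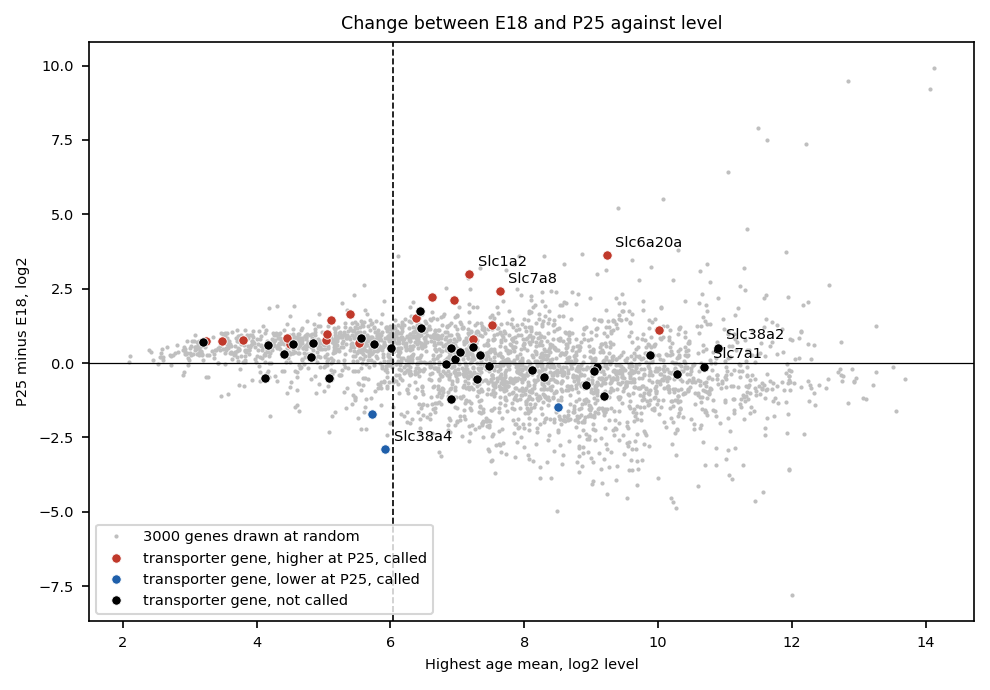
Difference between P25 and E18 (log2, vertical axis) against the highest age mean (log2, horizontal axis) for the 54 transporter genes (red, called higher; blue, called lower; black, not called) and 3000 genes drawn at random (grey). The dashed line is the median of all deposited values, 6.04. Left of it most grey points lie above 0, as do most of the transporter genes. A rise itself moves a gene to the right. Slc6a20a, Slc1a2 and Slc7a8 lie right of the line, Slc1a2 only through its age means from P15 on.

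Between adjacent stages fewer carriers changed. In stage 2 relative to stage 1, 4 rose (Slc6a20a, Slc6a4, Slc7a8 and Slc7a10) and Slc38a1 fell, beside 2.3% and 1.69% of all genes. Of these 5, Slc6a20a was the only one whose groups did not overlap, and those of Slc7a6, which was not called (limma adjusted p = 0.0611), did not overlap either. In stage 3 relative to stage 2 limma called 0 of the 54 genes in either direction, beside 0.218% and 0.626% of all genes, and 4 were higher and 8 lower at an unadjusted p under 0.05. In stage 4 relative to stage 3, 7 rose (Slc1a4, Slc1a2, Slc7a1, Slc6a9, Slc38a5, Slc3a2 and Slc6a11) and 2 fell (Slc6a6 and Slc6a8), beside 5.02% and 5.27% of all genes. The groups did not overlap for Slc7a1, Slc6a9 and Slc38a5, nor for Slc1a5, which was not called (limma adjusted p = 0.143). How many of all genes had groups without overlap is not given here, so this is a description of single genes. The median difference of the 54 genes between stages 4 and 3 was 0.36, beside 0.07 over all genes.

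Genes that work beside the plasma membrane carriers were read from lists chosen with earlier results of these data known. Of 23 other carriers of amino acids and peptides 19 were measured, and 4 rose and none fell between E18 and P25 (with 7 higher and 1 lower at an unadjusted p under 0.05, limma). This was near the 18.4% of all genes that rose, and the median change was 0.29 beside 0.06 over all genes. Slc25a29, a mitochondrial carrier of basic amino acids, was 3.47 ± 0.38 higher at P25 than at E18 (adjusted p = 1.47e-06) and 1.81 ± 0.27 higher in stage 4 than in stage 3 (adjusted p = 0.000189). Slc25a38, the glycine carrier of mitochondria, was 1.03 ± 0.28 and 0.96 ± 0.20 higher in the same comparisons (adjusted p = 0.00816 and 0.00333). Slc25a13, an aspartate and glutamate carrier, and Slc25a22, a glutamate carrier, also rose between E18 and P25, by 1.28 ± 0.38 and 0.90 ± 0.33 (adjusted p = 0.0148 and 0.0415). The peptide carrier Slc15a1 was 1.27 ± 0.26 higher in stage 2 than in stage 1 (adjusted p = 0.00768). Sfxn1, which takes serine into mitochondria, and Ctns, the lysosomal cystine carrier, rose in stage 4 relative to stage 3.

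Of 38 genes of amino acid sensing by mTORC1 34 were measured, and 3 rose and 8 fell between E18 and P25, beside 18.4% and 17.5% of all genes. Of the 34 genes 33 were not dim, and of all 10534 genes that were not dim 1433 rose and 2427 fell. The falls in the list were thus near the share of genes of such level. The members that fell included Mios, Depdc5, Nprl2 and Seh1l, which belong to the GATOR complexes, and Lamtor3 and Lamtor5 of the Ragulator. Other members of these complexes did not fall. Nprl3, Wdr59 and Lamtor4 had higher means at P25 (7.83, 7.70 and 9.54) than at E18 (7.07, 7.08 and 8.78), without being called. Mios and Depdc5 fell by 2.97 ± 0.58 and 2.38 ± 0.47 (adjusted p = 0.00087 and 0.000809). The 3 that rose were Rragd, a Rag GTPase, by 2.35 ± 0.62, Flcn, the folliculin GTPase activator, by 1.32 ± 0.29, and Sesn2, a leucine sensor, by 1.12 ± 0.28 (adjusted p = 0.00719, 0.00198 and 0.00556). The list's median change was 0.18, beside 0.06 over all genes and -0.26 over all genes that were not dim.

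Of 15 genes of glutathione synthesis and the gamma-glutamyl cycle 14 were measured, of which 4 rose and none fell between E18 and P25 (7 higher and 1 lower at an unadjusted p under 0.05, limma), beside 18.4% and 17.5% of all genes, with a median change of 0.70. They were Dpep1, a dipeptidase, by 3.10 ± 0.61, Ggt1, a gamma-glutamyl transferase, by 2.20 ± 0.54, Ggct by 1.39 ± 0.38 and Oplah by 1.22 ± 0.39 (adjusted p = 0.000908, 0.00468, 0.00926 and 0.0228). Chac1, Dpep1 and Lap3 rose in stage 2 relative to stage 1. Of 12 ubiquitin ligases and partners of carriers 10 were measured, and 1 rose and 1 fell, which was no more than the 18.4% and 17.5% of all genes, with a median change of -0.14. Nedd4, a ligase that marks membrane carriers for uptake, fell by 0.56 ± 0.18 at P25 relative to E18 (adjusted p = 0.0218). Of the 9 genes around ATF4, 5 rose and none fell between E18 and P25, beside 18.4% and 17.5% of all genes. At an unadjusted p under 0.05 (limma) 5 were higher and 1 was lower. The median change was 1.07, and 6 of the 9 had a positive change. None of these 9 genes was dim, nor were 13 of the 14 glutathione genes. Of all 10534 genes that were not dim 1433 rose and 2427 fell, with a median change of -0.26. Ddit3, Eif2ak4 and Cebpb had lower means at P25 than at E18, with Ddit3 at 6.95 and 8.18. One of the 5 that rose, Sesn2, was also counted in the list of amino acid sensing. Among the others, Atf4 rose by 1.07 ± 0.22 and Asns, the asparagine synthetase, by 2.57 ± 0.37 (adjusted p = 0.00118 and 4.39e-05).

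Markers of other cell types varied between the captures, and markers of the labelled cell type were low in the youngest. The mean of 15 of 16 acinar markers lay between 4.16 and 5.97 on the stage 1 arrays, under the median of all values, between 7.48 and 8.45 in stage 2, between 8.26 and 9.49 in stage 3 and between 11.63 and 12.19 in stage 4. Skeletal muscle markers (15 of 16) ran from 5.11 to 12.10 over the arrays and were above 10 on 6 of the 27. Cartilage and bone markers (12 of 14) reached 10.03 on E18 replicate 1 and lay between 5.18 and 5.47 at P25. Fibroblast markers (9 of 9) lay between 8.65 and 9.94 in stage 4 and between 10.03 and 11.23 in stage 1, and lymphocyte and plasma cell markers (9 of 11) between 5.99 and 6.25 in stage 4 and between 4.66 and 5.27 in stage 3. Neuron and glia markers (11 of 13) stayed between 4.23 and 5.04 except for 6.25 on E18 replicate 1.

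When the means of the muscle, epidermis and cartilage markers entered the fit as covariates, 7 genes rose and 2 fell between E18 and P25, 14 passed the F test, and 3 rose in stage 4 relative to stage 3. Shares of all genes called in that fit are not given here, so the counts show only which calls were kept. Slc6a20a, Slc7a8, Slc7a4, Slc7a2, Slc6a9 and Slc6a11 were still called higher at P25 than at E18, Slc38a4 and Slc38a9 still lower, and Slc7a1, Slc6a9 and Slc6a11 still higher in stage 4 than in stage 3. Slc38a2 was also called higher in that fit (1.07, adjusted p = 0.0374). Of the 22 calls between E18 and P25 14 were lost, among them Slc1a2 (adjusted p = 0.057), Slc38a5 (0.0747), Slc7a6 (0.082), Slc6a2 (0.0889), Slc6a14 (0.107), Slc6a17 (0.121) and Slc3a2 (0.21), and the remaining 7 were dim. Between stages 2 and 1 only Slc6a20a was still called (adjusted p = 0.0217), and Slc38a1 (0.118), Slc6a4 (0.271), Slc7a10 (0.296) and Slc7a8 (0.372) were not. Between stages 4 and 3 the calls of Slc1a4 (adjusted p = 0.0939), Slc3a2 (0.102), Slc6a6 (0.105), Slc38a5 (0.162), Slc1a2 (0.178) and Slc6a8 (0.182) were lost. The part of fibroblasts, lymphocytes and acinar maturation itself in these changes was not tested.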

How the data were processed

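The data were mRNA levels of laser-captured parotid acini on 27 Affymetrix rat genome arrays. Per the study's methods the authors summarised the deposited log2 values with the Robust Multi-array Average, which corrects background, normalises between arrays and gives 1 log2 value per probe set. Neither the software version nor the RNA amount per array is given in the sources used here. Of 31099 probe sets, 57 controls were left out and 31042 tested. Of these 20826 had 1 gene symbol, covering 14217 genes. A gene was read from its brightest probe set, and 12 of the 54 genes had several.

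The deposited log2 values were fitted as they stand in R 4.3.3 by limma 3.58.1. The model held 1 mean per age, which left 18 residual degrees of freedom, and variances were moderated by empirical Bayes. Tests were the F test over 9 ages, P25 against E18 and adjacent stages, two-sided, with Benjamini-Hochberg adjustment over all probe sets and a threshold of 0.05. Errors are standard errors of the fit. Array medians lay between 5.91 and 6.13 and correlations within an age between 0.873 and 0.962. The fit was run on simulated data with independent noise and added changes in stage 4 only. These data held no contamination shared within a capture, so the run cannot speak to its effect.

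Values on every array were given for genes past the F test among the 14 widest ranges of age means that passed it, plus Slc3a2, and changes for the 5 largest called rises and falls in each contrast. Slc6a4 and other genes outside this rule were named after their values were seen. Alternatives covered the normalisation, the replicate block, a dim filter, array weights, the prior, the arrays fitted, the moderation, the probe set rule, covariates and leaving out each array. The genes and lists were chosen with earlier results of these data known. Promoters came from RefSeq.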

Additional observations from a re-analysis of the deposited data

How the results depend on the processing

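Of the 36 called changes 35 kept their direction under each alternative. The exception was Slc6a17 between E18 and P25, which was -0.44 with the mean of its probe sets (adjusted p = 0.437). Under other settings 71 of 382 values of these changes kept their direction but were no longer past the threshold, as were 70 of 972 when an array was left out. The number past the F test lay between 14 (marker covariates) and 24 (no moderation). Without dim probe sets, 9 genes rose and 1 fell between E18 and P25, since fewer genes were tested. With only the ages compared in the fit, which leaves fewer arrays for the spread, 6 rose in that contrast, 1 rose and 2 fell in stage 2 relative to stage 1, and 3 rose and 0 fell in stage 4 relative to stage 3 (4 lower at an unadjusted p under 0.05, limma). With the marker covariates the counts were 7 higher between E18 and P25, 1 higher and 0 lower between stages 2 and 1 (2 lower at an unadjusted p under 0.05, limma), and 3 higher and 0 lower between stages 4 and 3 (2 lower at an unadjusted p under 0.05). With the mean of all probe sets of a gene, 6 fell between E18 and P25, 2 fell in stage 2 and 1 in stage 4. Array weights gave 4 falls in stage 2 and 3 in stage 3. Centring each array on its median gave 2 falls in stage 2 and 1 in stage 4, the filter on dim probe sets gave 2 falls in stage 2, and quantile normalization, no moderation and the GAPDH covariate each gave 1 fall in stage 4. For these last settings the cause was not tested. The counts in this section have no share of all genes beside them and show only how the calls varied with the processing.

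When each array was left out in turn, 13 to 20 genes rose and 2 to 4 fell between E18 and P25, 1 to 4 rose and 1 to 2 fell in stage 2, and 17 to 22 passed the F test. In stage 3, limma called 0 to 1 falls, the single one without P25 replicate 1. In stage 4, 5 to 9 rose and 0 to 2 fell, with 0 falls without P9 replicate 2 or 3, any P15 array, P20 replicate 1 or P25 replicate 2 (2 to 3 lower at an unadjusted p under 0.05), and 1 fall without P0 replicate 3, P9 replicate 1, P20 replicate 2 or 3, or P25 replicate 1 or 3. The rises in stage 2 numbered 1 without P5 replicate 2 and 2 without P2 replicate 1 or 2 or P5 replicate 3, and 2 genes fell in stage 2 without E18 replicate 1, P9 replicate 1 or 2, or P20 replicate 1 or 3.

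The labels tie no replicate number to a shared litter or day, and not every pair of arrays with the same number deviated together, so the numbers were not used as a pairing. Deviations of arrays with the same number correlated at -0.11 to 0.46 (median 0.01, 11 of 108 pairs over 0.1), and 16 of 27 arrays correlated best with their own number, a hint from the data and not from the design. With the replicate block the counts stayed at 20 past the F test, 19 and 3 between E18 and P25, 4 and 1 in stage 2, and 7 and 2 in stage 4. With 3 arrays per age, dim probe sets and the change of tissue preparation after P5 limit what can be read from single genes.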
